A study of Saccharomyces cerevisiae with 6 samples.

Results

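The genes described here encode the α-aminoadipate pathway, by which budding yeast makes lysine, together with the activator of that pathway. They were taken by name: LYS1, LYS2, LYS4, LYS5, LYS9, LYS12, LYS14, LYS20 and LYS21. All 9 were on the array, each as 1 spot, among 5711 measured genes. The strains compared were ssy1KO, ssy1T9 and wt of Saccharomyces cerevisiae. The design text places all of them in S288C, a common laboratory background, while the sample labels add that name to wt only. SSY1 encodes the plasma membrane sensor of external amino acids. By its name ssy1KO lacks that gene, and the labels describe the ssy1T9 allele no further, although the title refers to a natural eQTN, a nucleotide variant linked to expression. The sources used here do not give the growth medium or other alleles of the strains.

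Total RNA of 2 strains was labelled with Cy5 and Cy3 and hybridised together on each of 6 arrays. Every pair of strains was measured on 2 arrays with exchanged dyes, so that each strain was on 4 arrays. KO/wt array 1 and T9/wt array 1 carried wt in Cy5, KO/wt array 2 carried ssy1KO in Cy5, and T9/wt array 2 carried ssy1T9 in Cy5. KO/T9 array 1 carried ssy1T9 in Cy5 and KO/T9 array 2 carried ssy1KO in Cy5. Array values below are log2 ratios of the first-named strain over the other, with the median gene of the array at 0. The base of the logarithm is assumed to be 2, and every fold given here rests on that assumption. The direction of the ratio is likely and not stated: it was set so that SSY1 was lower in ssy1KO on the 4 arrays with that strain. In that sign SSY1 read -1.65 and -1.1 in ssy1KO over wt, and -1.86 and -1.87 in ssy1KO over ssy1T9. In the opposite sign every rise below would be a fall. These are ratios only, so no level of a transcript within a strain, and no order of levels between genes, can be read from them.

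Yeast builds lysine from 2-oxoglutarate and acetyl coenzyme A in a chain of reactions. Homocitrate synthase, of which Lys20 and Lys21 are the isozymes, makes the first committed intermediate and is inhibited by lysine, the end product. Lys4 (homoaconitase) and Lys12 (homoisocitrate dehydrogenase) carry the chain on to 2-oxoadipate, which is aminated to α-aminoadipate. Lys2 reduces α-aminoadipate after Lys5, a phosphopantetheinyl transferase, has activated it, and Lys9 and Lys1 make and split saccharopine to release lysine. Lys14 is a transcriptional activator of the pathway that responds to the intermediate α-aminoadipate semialdehyde, and several LYS genes are also under general amino acid control by Gcn4.

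In ssy1KO, 5 of the 9 genes rose against wt, 1 fell and 3 did not pass the test. LYS1, LYS2, LYS12, LYS5 and LYS21 were higher, by 1.70-fold for LYS1 down to 1.25-fold for LYS21. LYS20, the gene of the other homocitrate synthase, was lower by 0.64 on the log2 scale. In ssy1T9, 6 genes rose, 1 fell and 2 did not pass: the same 5 genes and LYS14 were higher, and LYS20 was lower. Over all genes 13.8% were called higher and 10.5% lower in ssy1KO, and 14.1% higher and 12.1% lower in ssy1T9, where called means a Benjamini-Hochberg adjusted p under 0.05 in limma. The median change of the 9 genes was 0.32 in ssy1KO, beside 0.002 over all genes, and 0.36 in ssy1T9, beside -0.003 over all genes. The mutants were compared with the same wt, so their values are set side by side and are not independent of each other.

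**Figure D1:**
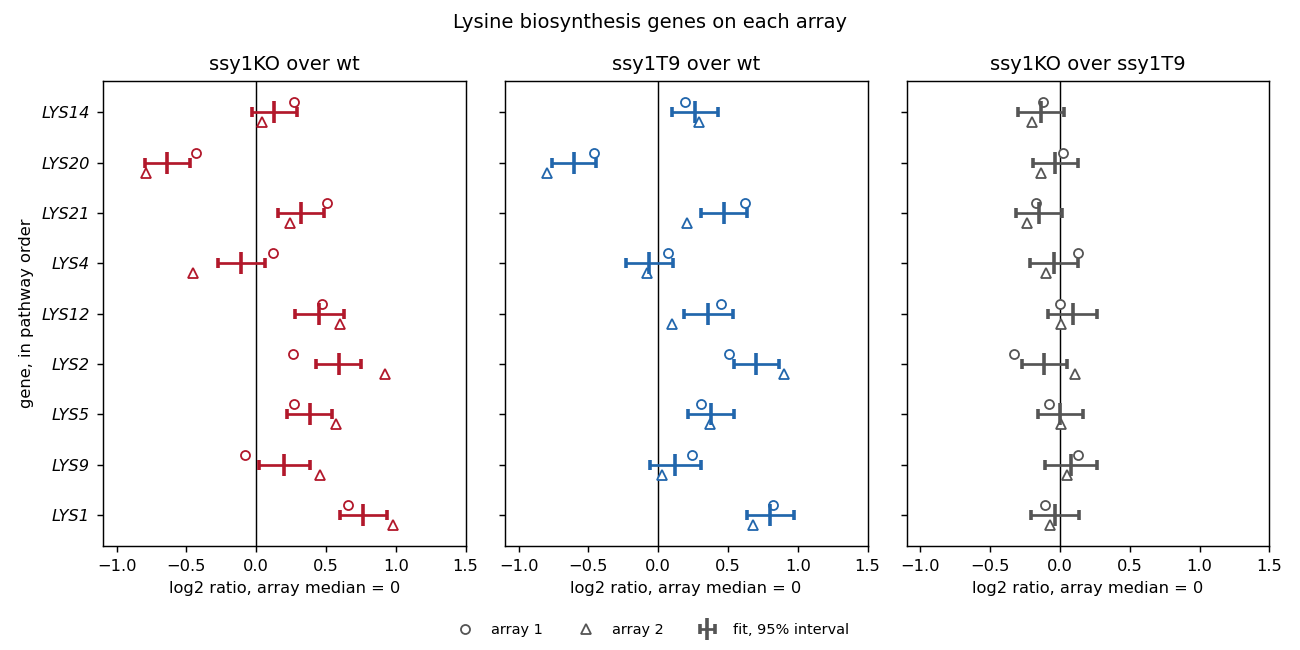
Log2 ratio of the 9 lysine genes (rows, in pathway order) on each array, with the array median at 0; open circles are array 1 and open triangles array 2 of a pair, and the bars are the fit over all 6 arrays with its 95% interval. LYS20 lies below 0 on all 4 arrays of a mutant with wt, LYS1, LYS2, LYS5, LYS12, LYS14 and LYS21 lie above 0 on all 4, and the panel of ssy1KO over ssy1T9 lies around 0.

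Among the 9 genes the only call of a fall was in the first step of the pathway. LYS20 read -0.43 and -0.79 in ssy1KO over wt and -0.46 and -0.80 in ssy1T9 over wt, below the median gene on all 4 arrays. The fitted change was -0.64 in ssy1KO (SE 0.08, limma adjusted p = 7.57e-07) and -0.60 in ssy1T9 (SE 0.08, limma adjusted p = 1.71e-06). Only 1% of all genes lay lower in ssy1KO, and 1.2% in ssy1T9.

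LYS21 moved the other way. It read 0.51 and 0.24 in ssy1KO over wt and 0.62 and 0.21 in ssy1T9 over wt, above the median gene on all 4 arrays. In ssy1KO it rose by 0.32 (95% interval 0.15 to 0.49, limma adjusted p = 0.00473), against an interval of -0.80 to -0.48 for LYS20. In ssy1T9 it rose by 0.47 (0.30 to 0.64, limma adjusted p = 9.06e-05), against -0.76 to -0.44 for LYS20. The intervals of the isozyme genes thus did not overlap in either mutant. Transcripts of such close copies can share signal on an array, and the probe sequences are not used here. The ssy1KO call for LYS21 was lost without KO/wt array 1, at 0.28 (limma adjusted p = 0.127), and without KO/wt array 2, at 0.29 (limma adjusted p = 0.0523).

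The next steps were measured through LYS4 and LYS12. LYS4, which encodes homoaconitase, an iron-sulphur enzyme, read 0.12 and -0.45 in ssy1KO over wt and 0.07 and -0.08 in ssy1T9 over wt. Its arrays thus lay on opposite sides of the median gene in each mutant, and the fitted -0.11 and -0.06 did not pass (SE 0.08 for both, limma adjusted p = 0.375 and 0.627). Without centring the sign of LYS4 turned in both mutants, to 0.05 in ssy1KO and 0.11 in ssy1T9, again without passing, and without KO/wt array 2 the ssy1KO value was 0.02 (limma adjusted p = 0.918). LYS12, encoding the dehydrogenase of the next reaction, read 0.47 and 0.60 in ssy1KO over wt, and 0.45 and 0.10 in ssy1T9 over wt. It rose by 0.45 in ssy1KO (SE 0.085, limma adjusted p = 3.29e-04) and by 0.36 in ssy1T9 (SE 0.085, limma adjusted p = 0.00269). Without T9/wt array 1 the ssy1T9 value was 0.32 and did not pass (limma adjusted p = 0.0834). From the T9/wt arrays alone it was 0.275 and did not pass either (limma adjusted p = 0.0918).

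LYS2, the gene of α-aminoadipate reductase, read 0.26 and 0.92 in ssy1KO over wt and 0.51 and 0.90 in ssy1T9 over wt. All 4 values were above the median gene, and the higher one of each mutant came from the array with the mutant in Cy5. LYS2 also had the largest dye intercept among the 9 genes, 0.25 towards Cy5, a gene-specific shift that the fit removes. With it removed LYS2 rose by 0.59 in ssy1KO (SE 0.08, limma adjusted p = 2.42e-06) and by 0.70 in ssy1T9 (SE 0.08, limma adjusted p = 1.55e-07). LYS5, whose product activates Lys2, read 0.27 and 0.57 in ssy1KO over wt, and 0.31 and 0.37 in ssy1T9 over wt. Its rise was 0.38 in both mutants (SE 0.08 for both, limma adjusted p = 7.88e-04 in ssy1KO and 7.74e-04 in ssy1T9). Enzyme gene and activator gene were thus both higher, LYS2 by 1.51-fold in ssy1KO and 1.63-fold in ssy1T9, and LYS5 by 1.3-fold in each.

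Of the genes of the final steps, LYS1 passed in both mutants and LYS9 in neither. LYS9, encoding saccharopine reductase, read -0.08 and 0.46 in ssy1KO over wt and 0.24 and 0.03 in ssy1T9 over wt. Neither the fitted 0.20 of ssy1KO nor the 0.12 of ssy1T9 passed (SE 0.09, limma adjusted p = 0.108 and 0.347). Its value moved with single arrays. In ssy1KO it was 0.06 without KO/wt array 2 (limma adjusted p = 0.748) and 0.36 without KO/wt array 1 (limma adjusted p = 0.0517), and it passed without T9/wt array 2, at 0.25 (limma adjusted p = 0.0333). In ssy1T9 it lay between 0.02 without T9/wt array 1 and 0.21 without T9/wt array 2, was 0.05 and 0.20 without KO/wt array 2 and array 1, and passed in none of these. LYS1, encoding saccharopine dehydrogenase, which releases lysine in the last reaction, read 0.66 and 0.98 in ssy1KO over wt and 0.82 and 0.68 in ssy1T9 over wt. It had the largest rise among the 9 genes in the fit, 0.77 in ssy1KO (limma adjusted p = 9.36e-08) and 0.80 in ssy1T9 (limma adjusted p = 4.27e-08), with an SE of 0.08 for both. In ssy1KO 98.3% of all genes lay below LYS1, and in ssy1T9 98.6%.

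LYS14, the gene of the activator, passed in 1 of the mutants. It read 0.27 and 0.04 in ssy1KO over wt and 0.19 and 0.29 in ssy1T9 over wt, all above the median gene. In ssy1T9 it passed at 0.265 (SE 0.08, limma adjusted p = 0.0145), and in ssy1KO it did not, at 0.13 (SE 0.08, limma adjusted p = 0.249), or 0.06 without KO/wt array 1. The difference between the mutants was itself -0.135 (95% interval -0.30 to 0.03) and did not pass (limma adjusted p = 0.936). The ssy1T9 call was lost without T9/wt array 2, at 0.225 (limma adjusted p = 0.143), without KO/wt array 1, at 0.23 (limma adjusted p = 0.0809), and without KO/T9 array 1, at 0.26 (limma adjusted p = 0.0502).

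**Figure D2:**
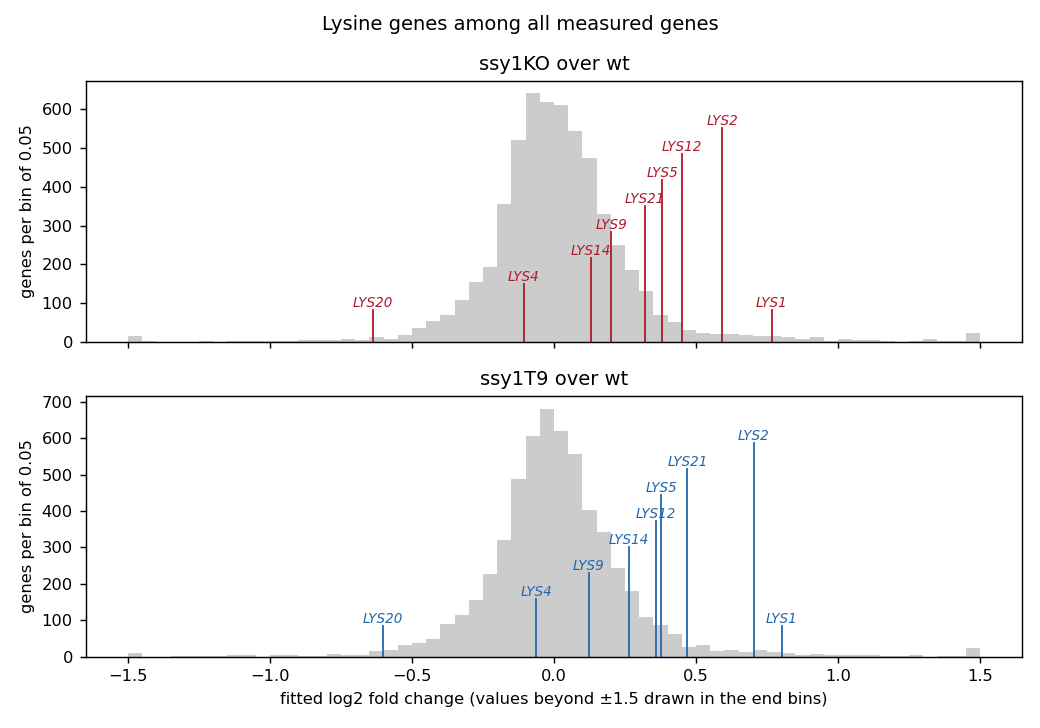
Fitted log2 fold change over wt of all 5711 genes (grey histogram, genes per bin of 0.05) in ssy1KO above and ssy1T9 below, with a line for each lysine gene; line heights only keep the names apart. LYS20 stands in the lower tail, LYS1 and LYS2 stand in the upper tail, and LYS4 lies within the bulk of the genes.

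Between the mutants none of the 9 lysine genes passed, in a comparison in which 0.298% of all genes were called. Also none of the 9 had an unadjusted limma p under 0.05, and the smallest, 0.0743, belonged to LYS21. On the arrays that held both mutants, LYS21 read -0.17 and -0.24 in ssy1KO over ssy1T9, LYS1 -0.11 and -0.07, and LYS20 0.02 and -0.14. In 4 of the 9 genes both arrays had the same sign. The 95% intervals of the 9 differences lay between -0.32 (LYS21) and 0.27 (LYS12), so a difference of up to 1.24-fold is within them, and equal expression is not shown.

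The direct measurement can be set beside the path through wt. For LYS20 the KO/T9 arrays alone gave -0.06, and the KO/wt arrays minus the T9/wt arrays gave 0.02. For LYS2 these values were -0.11 and -0.12, and for LYS1 -0.09 and 0.07. They lay farthest apart for LYS12, at 0.01 directly and 0.26 through wt.

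By a rule of likeness over the 6 centred array values, the genes nearest to LYS1 were UGX2, MSC1 and SKP2, at Euclidean distances of 0.173, 0.217 and 0.217, where the median gene lay at 1.647. UGX2 was at 0.84 in ssy1KO and 0.78 in ssy1T9, MSC1 at 0.68 and 0.73, and SKP2 at 0.79 and 0.75. The genes nearest to LYS2 were SPI1, a cell wall protein gene, AFR1 and AVT6, which encodes a vacuolar amino acid exporter, at 0.280, 0.331 and 0.348, where the median gene lay at 1.51. Among the lysine genes themselves LYS5 and LYS12 were closest, at 0.374, LYS1 and LYS2 were at 0.624, and LYS1 and LYS20 were farthest apart, at 2.859. These distances are descriptions of 6 arrays that share strains, and no test was made on them. They were taken with the dye shift still in the ratios. A difference in dye intercept, such as 0.25 for LYS2 and 0.04 for LYS1, therefore adds to them, and it also enters the choice of nearest genes.

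Most genes of precursor supply were higher in both mutants. The list holds enzymes that make or convert 2-oxoglutarate, the carriers of 2-oxoadipate and the aminotransferase Aro8, and 9 of its 10 genes were measured. Of these 9, 8 rose and 0 fell in ssy1KO, with a median of 0.54, and 9 rose in ssy1T9, with a median of 0.365. The backgrounds are the 13.8% and 14.1% given above, and some of these genes were known from earlier results to be high.

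ODC2 encodes a mitochondrial carrier that exchanges 2-oxoadipate and 2-oxoglutarate. It read 1.12 and 1.61 in ssy1KO over wt and 1.04 and 1.19 in ssy1T9 over wt, more than any of the 9 lysine genes on each of these 4 arrays. It rose 2.47-fold in ssy1KO and 2.26-fold in ssy1T9 (log2 SE 0.08, limma adjusted p = 5.0e-12 and 4.06e-11). ODC1, the other carrier gene, was at 0.145 in ssy1KO and did not pass (limma adjusted p = 0.187), and at 0.29 in ssy1T9 (limma adjusted p = 0.00685), where it lost the call without T9/wt array 1 (0.27, limma adjusted p = 0.103).

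CIT2, the peroxisomal citrate synthase gene, was at 1.15 in ssy1KO and 1.105 in ssy1T9. The aconitase gene ACO1 reached 0.725 in ssy1KO and 0.685 in ssy1T9. IDH1 and IDH2, which encode the subunits of NAD-dependent isocitrate dehydrogenase, stood at 0.65 and 0.54 in ssy1KO and at 0.52 and 0.365 in ssy1T9. These 4 genes passed under all 13 alternatives in both mutants. ARO8, an aromatic aminotransferase gene whose product also acts on 2-oxoadipate, was at 0.35 in ssy1KO and 0.31 in ssy1T9. Its calls were lost without KO/wt array 2 in ssy1KO (0.29, limma adjusted p = 0.0593) and without T9/wt array 1 in ssy1T9 (0.21, limma adjusted p = 0.22). CIT1 (mitochondrial citrate synthase) and IDP1 (mitochondrial NADP-dependent isocitrate dehydrogenase) passed at 0.385 and 0.295 in ssy1KO and at 0.32 and 0.365 in ssy1T9. Without KO/wt array 1 they did not pass in ssy1KO (limma adjusted p = 0.0597 for CIT1 and 0.106 for IDP1). With separate pair coefficients, in which each strain pair has its own effect, further calls were lost: ARO8 (0.325, limma adjusted p = 0.0502) and IDP1 (0.25, limma adjusted p = 0.0856) in ssy1KO, and CIT1 (0.245, limma adjusted p = 0.0862) and ODC1 (0.27, limma adjusted p = 0.0628) in ssy1T9.

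**Figure D3:**
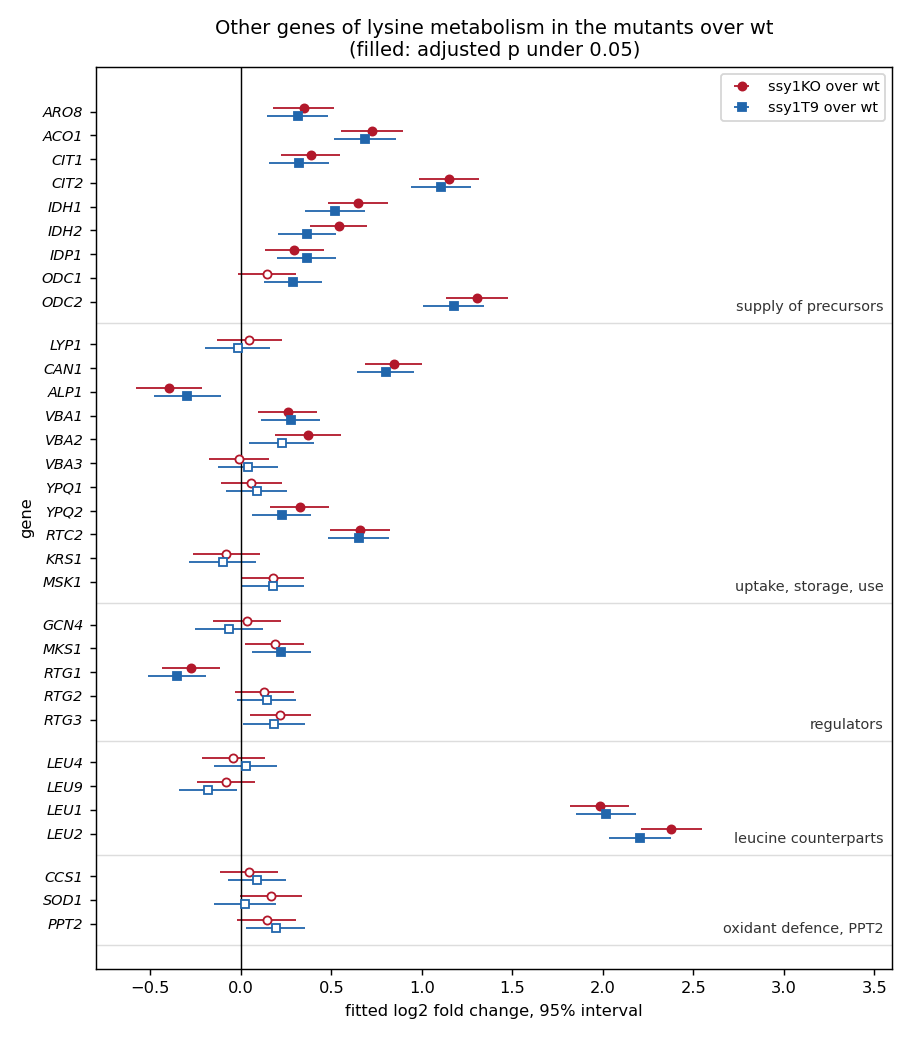
Fitted log2 fold change over wt, with its 95% interval, of other genes of lysine metabolism in ssy1KO (circles) and ssy1T9 (squares), grouped by list; filled symbols passed at an adjusted p under 0.05. The supply genes lie above 0 with ODC2 and CIT2 farthest out, the lysine permease gene LYP1 lies near 0, and LEU1 and LEU2 lie beyond all other genes shown.

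Genes of lysine uptake, storage and use were called in both directions. Of 11 genes 5 rose and 1 fell in ssy1KO, and 4 rose and 1 fell in ssy1T9, with medians of 0.18 in both. Over all genes 13.8% were called higher and 10.5% lower in ssy1KO, and 14.1% and 12.1% in ssy1T9. LYP1, the gene of the lysine permease, read 0.23 and -0.28 in ssy1KO over wt and 0.04 and 0.07 in ssy1T9 over wt, and its fitted 0.05 and -0.02 did not pass (limma adjusted p = 0.735 and 0.915). CAN1, the gene of a permease for arginine and other basic amino acids, read 0.96 and 0.79 in ssy1KO over wt and 0.87 and 0.67 in ssy1T9 over wt. The fitted rise was 0.845 in ssy1KO and 0.80 in ssy1T9, with SE 0.08 (limma adjusted p = 5.04e-09 and 1.33e-08).

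ALP1, the gene of a further basic amino acid permease, was lower at -0.395 in ssy1KO and -0.295 in ssy1T9. On T9/wt array 2 it read 0.03, and its ssy1KO call was lost without KO/wt array 1, at -0.37 (limma adjusted p = 0.0846), without KO/wt array 2, at -0.24 (limma adjusted p = 0.0993), and without centring, at -0.24 (limma adjusted p = 0.0986). Its ssy1T9 call held under 6 of 13 alternatives and was lost without T9/wt array 1 (-0.31), KO/wt array 1 (-0.28), KO/wt array 2 (-0.22) or KO/T9 array 1 (-0.25), and without T9/wt array 2 it stood at -0.46. Among genes of vacuolar transporters for basic amino acids, RTC2 rose by 0.66 in ssy1KO and 0.65 in ssy1T9 and passed under all 13 alternatives in each. VBA1 and YPQ2 passed at 0.26 and 0.325 in ssy1KO and at 0.275 and 0.225 in ssy1T9, and VBA2 at 0.37 in ssy1KO. In ssy1T9 VBA2 was at 0.225 and did not pass (limma adjusted p = 0.0613), and the difference between the mutants, 0.145, did not pass either (limma adjusted p = 0.936). These calls, unlike that of RTC2, were lost without some single arrays and under some other settings. Of the 13 alternatives, 8 kept the call of VBA1 in ssy1KO and 10 kept it in ssy1T9. For YPQ2 the call held under 12 in ssy1KO but only 4 in ssy1T9, and for VBA2 under 10 in ssy1KO. Without KO/wt array 2, YPQ2 and VBA2 did not pass in ssy1KO (0.26 and 0.20, limma adjusted p = 0.057 and 0.131), and without KO/wt array 1, VBA1 and VBA2 did not (limma adjusted p = 0.0787 and 0.0659). VBA1 also failed in ssy1KO without T9/wt array 1 or KO/T9 array 1 (0.22 and 0.26). Without T9/wt array 1, VBA1 and YPQ2 did not pass in ssy1T9 (0.20 and 0.17, limma adjusted p = 0.226 and 0.319), nor did they without T9/wt array 2 (0.28 and 0.26). YPQ2 also failed in ssy1T9 without KO/wt array 2, KO/T9 array 1 or KO/T9 array 2 (0.19, 0.24 and 0.22). The whole list had 3 calls in ssy1KO without KO/wt array 1 and 3 without KO/wt array 2. In ssy1T9 it had 2 calls without T9/wt array 1, and 3 without KO/wt array 2 or without KO/T9 array 1. VBA3, YPQ1 and the lysyl-tRNA synthetase genes KRS1 and MSK1 did not pass in either mutant, at -0.08 (KRS1) to 0.18 (MSK1) in ssy1KO and -0.10 (KRS1) to 0.18 (MSK1) in ssy1T9. Without T9/wt array 2, MSK1 passed in both (0.24 in ssy1KO and 0.31 in ssy1T9), as did VBA2 in ssy1T9 (0.35). Without KO/wt array 2, MSK1 was 0.09 in ssy1KO (limma adjusted p = 0.586) and VBA2 0.14 in ssy1T9 (limma adjusted p = 0.17).

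Of 5 genes of regulators, RTG1 was lower in both mutants and MKS1 higher in ssy1T9. With 5 genes, single calls are near the shares over all genes, 10.5% lower in ssy1KO and 14.1% higher and 12.1% lower in ssy1T9. GCN4 did not pass, with 0.03 in ssy1KO and -0.07 in ssy1T9 (limma adjusted p = 0.835 and 0.647), and its control acts largely through translation, which arrays do not measure. Of the genes of the retrograde pathway, which regulates the supply of 2-oxoglutarate, RTG1 was lower at -0.28 in ssy1KO and -0.35 in ssy1T9. Without centring RTG1 did not pass in either (-0.12 and -0.18), nor in ssy1KO without KO/wt array 1 or 2 (limma adjusted p = 0.129 and 0.0813). RTG2 and RTG3 did not pass, at 0.13 and 0.22 in ssy1KO and at 0.14 and 0.18 in ssy1T9. RTG3 passed in ssy1KO without T9/wt array 1 (0.27, limma adjusted p = 0.0416) or without KO/T9 array 2 (0.24, limma adjusted p = 0.0346), and was 0.10 without KO/wt array 1 (limma adjusted p = 0.583). MKS1, a negative regulator of that pathway whose mutants were also found as lysine overproducers, was at 0.19 in ssy1KO (limma adjusted p = 0.0914) and passed at 0.22 in ssy1T9 (limma adjusted p = 0.0398). That call held under 4 of 13 alternatives and was lost without any of 5 arrays, T9/wt array 2 being the exception, with the lowest value, 0.16, without T9/wt array 1.

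Leucine synthesis has a chain of reactions analogous to the upper lysine pathway, and its genes were set beside their counterparts. LEU4 and LEU9, encoding isopropylmalate synthases, stood at -0.04 and -0.08 in ssy1KO and at 0.03 and -0.18 in ssy1T9 and did not pass, except that LEU9 passed in ssy1T9 without KO/wt array 2 (-0.21, limma adjusted p = 0.0388). LEU1, the counterpart of LYS4, was at 1.98 in ssy1KO and 2.02 in ssy1T9, where LYS4 did not pass. LEU2, the counterpart of LYS12, was at 2.38 in ssy1KO and 2.21 in ssy1T9, beside 0.45 and 0.36 for LYS12. CCS1 and SOD1, whose loss causes a lysine requirement in air, and PPT2, the mitochondrial phosphopantetheinyl transferase gene, did not pass in either mutant, with values from 0.05 to 0.17 in ssy1KO and from 0.02 to 0.19 in ssy1T9. Between the mutants no gene of these lists passed, and IDH2 (0.175) and LEU2 (0.17) had unadjusted limma p-values of 0.0328 and 0.0484.

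The neighbours of the 9 genes in the R64 reference were looked up after the values had been seen. None of the 18 immediate protein-coding neighbours overlaps a lysine gene, and all were measured. In ssy1KO 4 of the 18 were higher and 1 was lower, where the shares over all genes were 13.8% and 10.5%. In ssy1T9 5 were higher and 0 lower, where those shares were 14.1% and 12.1%. STF1, which lies next to LYS21 and encodes a regulator of the mitochondrial ATP synthase, was at 0.42 in ssy1KO and 0.45 in ssy1T9, beside 0.32 and 0.47 for LYS21. PEX14, next to LYS5, was also called higher in both mutants, at 0.225 in ssy1KO and 0.405 in ssy1T9. So was YDR034C-D, next to LYS14, at 0.25 and 0.31. The remaining higher calls were PRK1, next to LYS12, in ssy1KO, and RAD16, next to LYS2, and MSO1, next to LYS9, in ssy1T9. Next to LYS20, MRX19 was at -0.08 in both mutants and did not pass, and INH1, the ATP synthase inhibitor gene, was at -0.25 in ssy1KO (limma adjusted p = 0.0359) and -0.02 in ssy1T9 (limma adjusted p = 0.915). The difference between the mutants for INH1, -0.23, did not pass (limma adjusted p = 0.685), and 0 of the 18 neighbours passed in that comparison. Both neighbours of LYS1, MGA2 and NRE1, failed the test in each mutant, at -0.20 and -0.085 in ssy1KO and at -0.13 and -0.045 in ssy1T9.

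Across alternative ways of treating the values, 5 of the 6 calls of lysine genes in ssy1KO (LYS1, LYS2, LYS5, LYS12 and LYS20) and 5 of the 7 in ssy1T9 (LYS1, LYS2, LYS5, LYS20 and LYS21) held under all 13, and none changed sign. LYS20 lay between -0.68 and -0.48 in ssy1KO and between -0.63 and -0.43 in ssy1T9. LYS1 lay between 0.62 and 0.925 in ssy1KO and between 0.73 and 0.975 in ssy1T9. Without centring, the median of all genes moved to 0.16 in ssy1KO and 0.17 in ssy1T9. The split of calls over all genes was then 1807 higher and 155 lower in ssy1KO, against 789 and 597 with centring. In ssy1T9 it was 1838 higher and 176 lower, against 803 and 691. In that setting 7 lysine genes were higher and LYS20 was still lower in each mutant, with LYS20 at -0.48 in ssy1KO and -0.43 in ssy1T9.

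**Figure D4:**
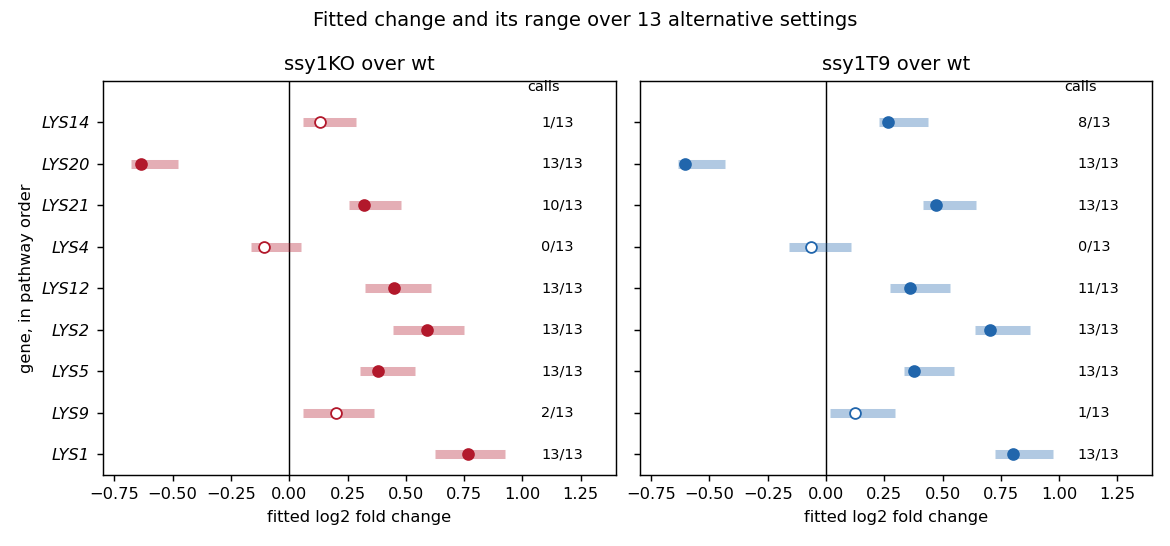
Fitted log2 fold change of each lysine gene over wt (points, filled where called) and its range over 13 alternative settings (bars), with the number of alternatives that called it at the right. The bars of LYS20 stay below 0 and those of LYS1, LYS2, LYS5, LYS12, LYS14 and LYS21 stay above 0 in both mutants, while the bar of LYS4 crosses 0.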

How the data were processed

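Transcript levels were measured on 6 dual-colour arrays. The deposited values are 1 log ratio per spot and array, taken as log2 ratios of Cy5 over Cy3. The sources used here do not give the scanner, background correction, normalization, log base or direction. The deposited columns are not centred: their medians over genes lay between -0.58 and -0.08. The table has 7744 rows with 0 missing values, of which 6116 carry 1 gene symbol, 0 several and 1628 none here. Gene names follow the R64 annotation, reached by identifier for 6111 rows, and spots of one gene were averaged, giving 5711 genes.

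Each array was centred on its median gene. With limma 3.58.1 (R 4.3.3), each gene's 6 ratios were modelled by a dye term and the effect of either mutant (lmFit, eBayes, 3 residual and 20.7 prior degrees of freedom), with Benjamini-Hochberg adjustment over all genes. ssy1KO against ssy1T9 is a contrast of that fit. The code was tested on simulated data. SE is the standard error of the fit. The labels do not say whether arrays came from separate cultures, so the p-values cover array-to-array spread, possibly technical, and the number of arrays limits the precision (median SE 0.08). The 13 alternatives were no centring, arrays scaled to equal spread, centring on all rows, no dye intercept, separate pair coefficients, robust eBayes, every row tested alone, and each of 6 arrays left out. The genes and lists were chosen with earlier results of these data known. Besides the 9 genes and the lists, the text names by rule the 3 genes nearest to each of the 2 members with the largest mean change. Promoter and protein sequences were not used here.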

Additional observations from a re-analysis of the deposited data

How the results depend on the processing

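The number of lysine genes called stayed within 1.5 times the reported one under all 13 alternatives: 5 to 8 against 6 in ssy1KO, 5 to 8 against 7 in ssy1T9, and 0 against 0 between the mutants. Leaving out single arrays gave 5 to 7 in ssy1KO and 6 to 7 in ssy1T9. Calls that changed beside those already named were LYS21 in ssy1KO without a dye intercept (0.32, limma adjusted p = 0.0506) and LYS14 in ssy1T9 without a dye intercept (limma adjusted p = 0.0534) or with separate pair coefficients (0.24, limma adjusted p = 0.108). Without centring LYS9 passed in both mutants (0.36 in ssy1KO and 0.295 in ssy1T9) and LYS14 in ssy1KO (0.29). The causes of these changes were not tested.

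Counts over all genes moved more. In ssy1KO they were 371 higher and 255 lower without KO/wt array 1, 454 and 286 without a dye intercept, 557 and 325 with separate pair coefficients, and 509 and 374 with arrays scaled to equal spread. In ssy1T9 they were 410 higher and 383 lower without T9/wt array 1, 469 and 343 without a dye intercept, and 438 and 421 with separate pair coefficients. Between the mutants 8 higher and 9 lower became 2 and 4 without a dye intercept, 4 and 7 without T9/wt array 1, and 2 and 5 with separate pair coefficients, without KO/wt array 1 or without KO/T9 array 1. No paired analysis was possible because the array numbers only name the dye orientation and link no samples across pairs of strains. With 2 arrays a pair, the median 95% half-width in the fit over all 6 arrays was 0.166, before adjustment for the number of genes. The limit for a call was higher, and LYS9 at 0.20 in ssy1KO did not pass. The simulated data held far fewer changed genes than were called here, so the adjusted limit was stricter there. In them, 6% of log2 changes of 0.25 and 76.1% of those of 0.5 were recovered in ssy1KO against wt. These shares do not carry over to the measured data. In the measured ssy1KO comparison PRK1 passed at 0.21 (limma adjusted p = 0.0471), while RTG3 at 0.22 did not (limma adjusted p = 0.0561). A gene that did not pass is not shown to be unchanged.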
